A study of Rattus norvegicus with 9 samples.

Results

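The genes described here encode the subunits of voltage-gated calcium and sodium channels. They were taken as every probe set of the array that carries exactly 1 platform symbol starting with Cacna, Cacnb, Cacng or Scn and then a digit, which leaves out the Scnn1 subunits of the epithelial sodium channel. The rule found 52 probe sets standing for 36 genes, out of 20826 probe sets and 14217 genes with 1 symbol. Affymetrix rat arrays were hybridised with RNA from the hypothalamus of normally developing female rats. There were 3 arrays of juvenile rats at day 26, labelled as the controls, 3 of early pubertal rats at day 29 and 3 of late pubertal rats at day 31. The titles give each array as the hypothalamus of a numbered rat and do not state whether RNA was pooled. Each array was therefore read as 1 animal, with n = 3 per stage. The labels name no strain.

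Voltage-gated calcium channels are built around a pore-forming alpha subunit, which sets the current type. An extracellular alpha-2-delta subunit and a cytoplasmic beta subunit bring the pore to the membrane and shape its gating. The gamma subunit family includes the TARPs, membrane proteins that accompany AMPA-type glutamate receptors to the synapse. Voltage-gated sodium channels have a pore-forming alpha subunit that carries the upstroke of the action potential, with beta subunits that adjust its gating and take part in cell adhesion. In hypothalamic neurons these channels drive spiking, burst firing and the calcium entry that releases peptides, including gonadotropin-releasing hormone, the peptide that starts puberty.

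Hypothalamic RNA was present as labelled. Of 13 measured marker genes of hypothalamic neurons, 11 passed the signal filter, among them Avp, Oxt, Pmch and Hcrt, whereas Pomc and Sim1 did not. Median deposited signal per array ran from 79.8 in early pubertal replicate 10 to 122.3 in late pubertal replicate 20, so levels were normalized between arrays and are given as log2(signal + 16). Pairs of arrays had a correlation over probe sets of 0.967 to 0.979. A probe set was tested where its mean over all 9 arrays lay above the 40th percentile, a normalized log2 level of 6.30. This left 33 channel probe sets of 25 genes. The filter used the mean of all stages together, and no detection calls were used.

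No calcium or sodium channel subunit gene passed the test for a difference between stages. Limma with Benjamini-Hochberg adjustment at 0.05 called 0 of 33 channel probe sets in early pubertal against juvenile animals, 0 in late pubertal against juvenile and 0 in late against early pubertal animals, where 0% of all 18625 tested probe sets were called in each comparison. A moderated F test over the 3 stages also called 0 of 33, against 0% of all tested probe sets. Before adjustment, 2, 2 and 1 of 33 had a limma p under 0.05 in the same order of comparisons, against 4.46%, 4.14% and 5.21% of all tested probe sets. By the F test 0 of 33 did, against 4.22%.

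The channel genes lay on both sides of 0 in every comparison. In early pubertal against juvenile animals 18 probe sets were above 0 and 15 below, with a median log2 difference of 0.02, beside −0.00142 over all tested probe sets. In late pubertal against juvenile animals 17 were above and 16 below, with a median of 0.01 beside −0.00148. Late against early pubertal animals gave 16 above and 17 below, with a median of −0.00204 beside 0.000367. The first 2 of these comparisons share the juvenile arrays, and each stage enters 2 comparisons. The median size of a difference, whatever its sign, was 0.10, 0.08 and 0.08 in the 3 comparisons, beside 0.10, 0.09 and 0.10 over all tested probe sets.

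The spread within stages, which holds differences between animals and between arrays together, limited the precision. The median SD within stages was 0.162 on the log2 scale for the tested channel probe sets and 0.173 for all tested probe sets. For 31 of 33 channel probe sets the unadjusted limma 95% intervals of all 3 differences lay within 1 log2 unit of 0, which is a 2-fold change. For 16 of 33 they lay within 0.5 log2 units, a 1.41-fold change. Of the subunit classes, the sodium channel beta subunits had the smallest median half-width, 0.20, and the 9 calcium channel alpha probe sets had half-widths of 0.22 to 0.75. These intervals are unadjusted, so they do not give the size of change that the adjusted test could miss. A missing call does not show equal levels.

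**Figure D1:**
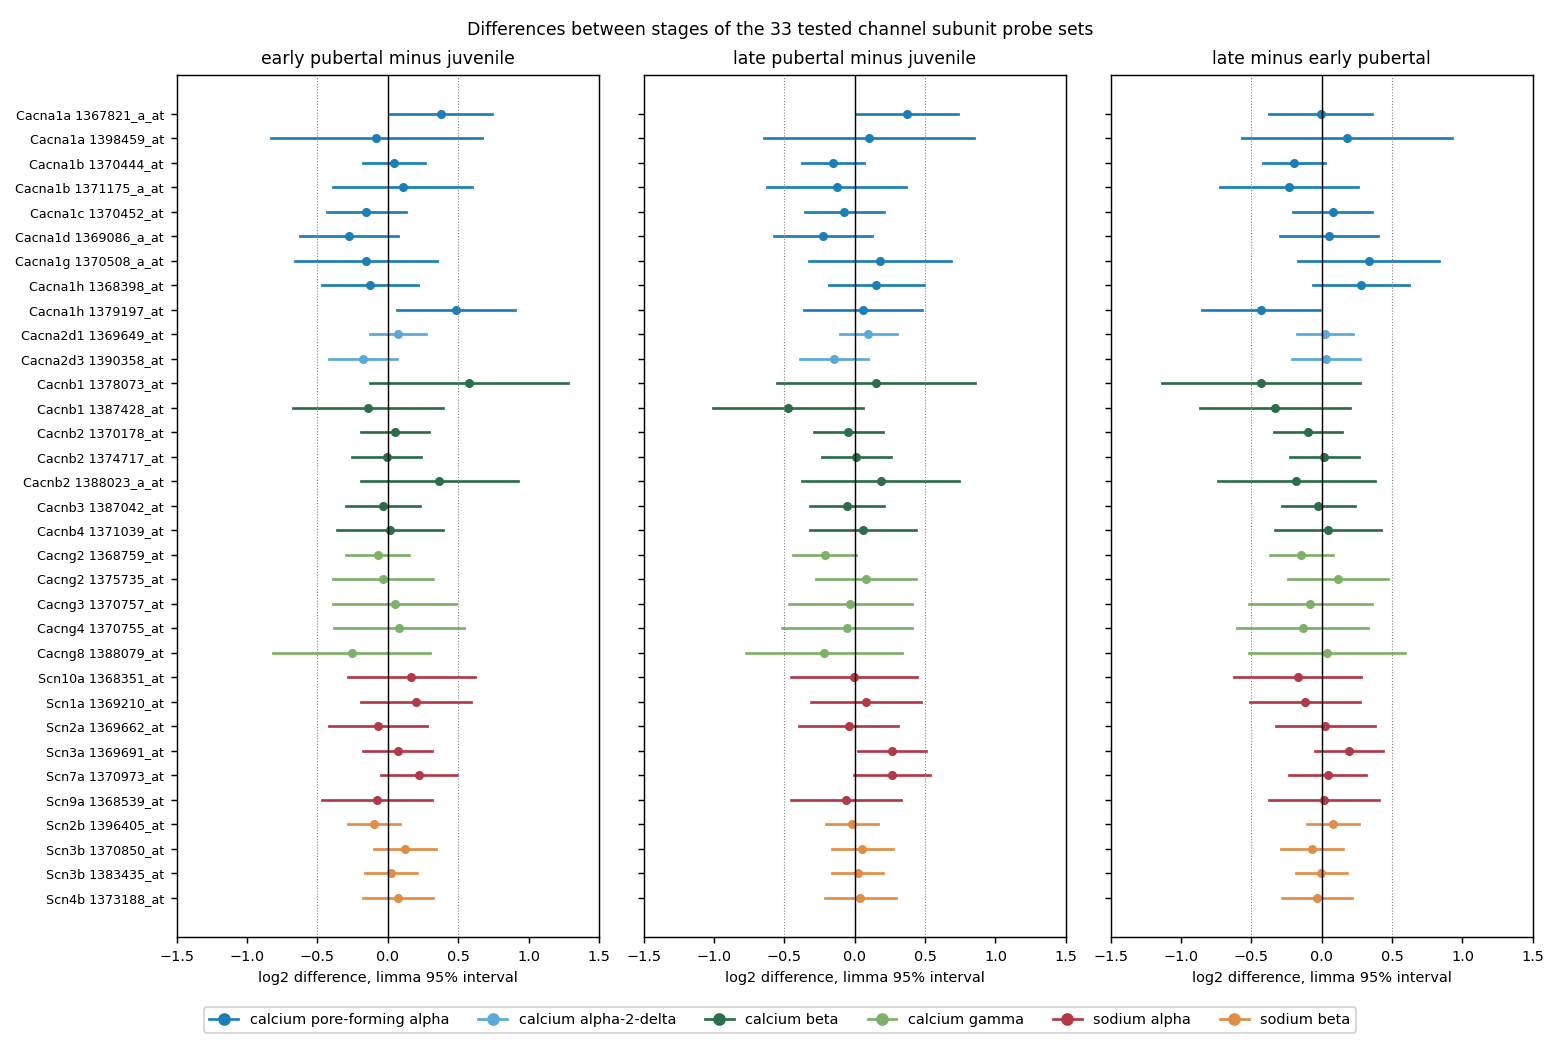
Log2 differences between stages (x axis) of the 33 tested channel probe sets (rows, coloured by subunit class) with their unadjusted limma 95% intervals; dotted lines mark 0.5 log2 units to each side of 0. Intervals of the sodium channel beta subunits are short, and 2, 2 and 1 of 33 intervals leave out 0 in the 3 comparisons.

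Among the pore-forming calcium channel subunits, a T-type gene had the smallest p in early pubertal against juvenile animals. T-type channels open near the resting potential and underlie rebound bursts. Cacna1h, a T-type subunit, gave on probe set 1379197_at log2 levels of 6.16, 6.40 and 6.37 in juvenile, 6.91, 6.75 and 6.73 in early pubertal and 6.10, 6.32 and 6.69 in late pubertal animals. All early pubertal arrays lay above all juvenile and all late pubertal ones. Early pubertal animals averaged 6.80 ± 0.10 and juvenile animals 6.31 ± 0.13 (SD, n = 3 each), a log2 difference of 0.49 ± 0.19 (SE) or 1.401-fold, with an unadjusted limma p of 0.0266 and an adjusted p of 0.994. Late minus early pubertal was −0.43 ± 0.19 (limma adjusted p 0.914). The other Cacna1h probe set, 1368398_at, went the opposite way: its levels were 6.66, 6.92 and 6.86 in juvenile, 6.52, 6.80 and 6.73 in early pubertal and 6.89, 6.96 and 7.04 in late pubertal animals. Here the early pubertal arrays overlapped the juvenile ones, and all late pubertal arrays lay above all early pubertal ones. Its differences were −0.12 ± 0.16 in early pubertal against juvenile animals and 0.28 ± 0.16 in late against early pubertal animals, so the probe sets lay on opposite sides of 0 in these comparisons, while both lay above 0 in late pubertal against juvenile animals, at 0.06 for 1379197_at and 0.15 for 1368398_at. With a constant of 64 in place of 16 before the log, the differences of 1379197_at were 0.32 in early pubertal against juvenile and −0.28 in late against early pubertal animals. This probe set was the dimmer of the 2, at the 43.5th percentile of mean signal and so near the filter. It did not enter the alternatives with a filter at the 60th percentile or with the brightest probe set of each gene.

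Cacna1g, another T-type subunit, had levels of 7.25, 6.69 and 7.05 in juvenile, 7.07, 6.91 and 6.55 in early pubertal and 7.27, 7.53 and 6.73 in late pubertal animals. Arrays of all stages overlapped, and its late minus early pubertal difference of 0.33 ± 0.23 had a limma adjusted p of 0.914. It was 0.16 without late pubertal replicate 14, 0.18 without early pubertal replicate 10 and 0.56 without late pubertal replicate 20. The third T-type gene, Cacna1i, lay below the filter on both of its probe sets.

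Cacna1a encodes the pore of P/Q-type channels, which trigger transmitter release at many nerve terminals. Probe set 1367821_a_at read 6.41, 6.42 and 6.72 in juvenile, 6.81, 7.08 and 6.79 in early pubertal and 6.97, 6.95 and 6.75 in late pubertal animals. Every pubertal array lay above every juvenile array. Early pubertal minus juvenile was 0.38 ± 0.17, 1.3-fold, and late pubertal minus juvenile 0.37 ± 0.17, 1.29-fold, with limma adjusted p of 0.994 and 0.9998. The other tested Cacna1a probe set, 1398459_at, read 6.44, 6.37 and 6.29 in juvenile, 6.77, 6.77 and 5.31 in early pubertal and 6.69, 6.56 and 6.13 in late pubertal animals. Its stages overlapped, with early pubertal replicate 10 far below the rest, and its differences from juvenile were −0.08 ± 0.34 in early and 0.10 ± 0.34 in late pubertal animals. Another 3 probe sets of Cacna1a were below the filter, so 1 of 5 separated the stages.

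Cacna1b encodes the pore of N-type channels, which share the release of transmitter with the P/Q type. Its probe set 1370444_at read 8.60, 8.59 and 8.67 in juvenile, 8.72, 8.67 and 8.60 in early pubertal and 8.48, 8.35 and 8.58 in late pubertal animals. All late pubertal arrays lay below all others. Late minus early pubertal was −0.20 ± 0.10 and late pubertal minus juvenile −0.15 ± 0.10, with limma adjusted p of 0.914 and 0.9998. Without late pubertal replicate 14 the difference from juvenile was −0.0901. The other probe set, 1371175_a_at, gave −0.23 ± 0.23 and −0.13 ± 0.23 with overlapping arrays. Both probe sets of Cacna1b thus lay below 0 in late pubertal animals against each earlier stage.

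L-type channels couple activity to gene transcription and carry slow pacemaker current. Cacna1d, an L-type pore, read 6.95, 7.29 and 7.0 in juvenile, 6.86, 6.80 and 6.76 in early pubertal and 6.93, 6.66 and 6.98 in late pubertal animals on probe set 1369086_a_at. All early pubertal arrays were below all juvenile ones, and the late pubertal arrays overlapped the juvenile ones. Its differences from juvenile were −0.28 ± 0.16 in early and −0.23 ± 0.16 in late pubertal animals, with limma adjusted p of 0.994 and 0.9998. Without juvenile replicate 2 they were −0.17 and −0.12, and without late pubertal replicate 14 the late one was −0.13. Cacna1c, the other L-type pore of brain, read 7.64, 7.73 and 7.64 in juvenile, 7.74, 7.42 and 7.40 in early pubertal and 7.61, 7.54 and 7.65 in late pubertal animals. Its early pubertal minus juvenile difference was −0.15 ± 0.13 and its stages overlapped. It was −0.26 without early pubertal replicate 7 and −0.0900 without early pubertal replicate 10.

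Counting probe sets whose stages did not overlap, early pubertal against juvenile animals had 4 of 33 (12.1%), 3 higher and 1 lower, beside 8.30% of all tested probe sets (3.86% higher and 4.43% lower). Late pubertal against juvenile animals had 3 (9.09%), 1 higher and 2 lower, beside 11.4% (5.90% higher and 5.52% lower). Late against early pubertal animals had 3 (9.09%), 1 higher and 2 lower, beside 11.3% (5.97% higher and 5.37% lower). These shares lay near those of all tested probe sets. Overlap was read on normalized levels, and some stages apart there overlapped in the deposited signal. For Cacna1h probe set 1379197_at the deposited signal was 69.5 in early pubertal replicate 10 and 73.8 in juvenile replicate 2. For Cacna1a probe set 1367821_a_at it was 74.0 in early pubertal replicate 10 and 89.7 in juvenile replicate 3.

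**Figure D2:**
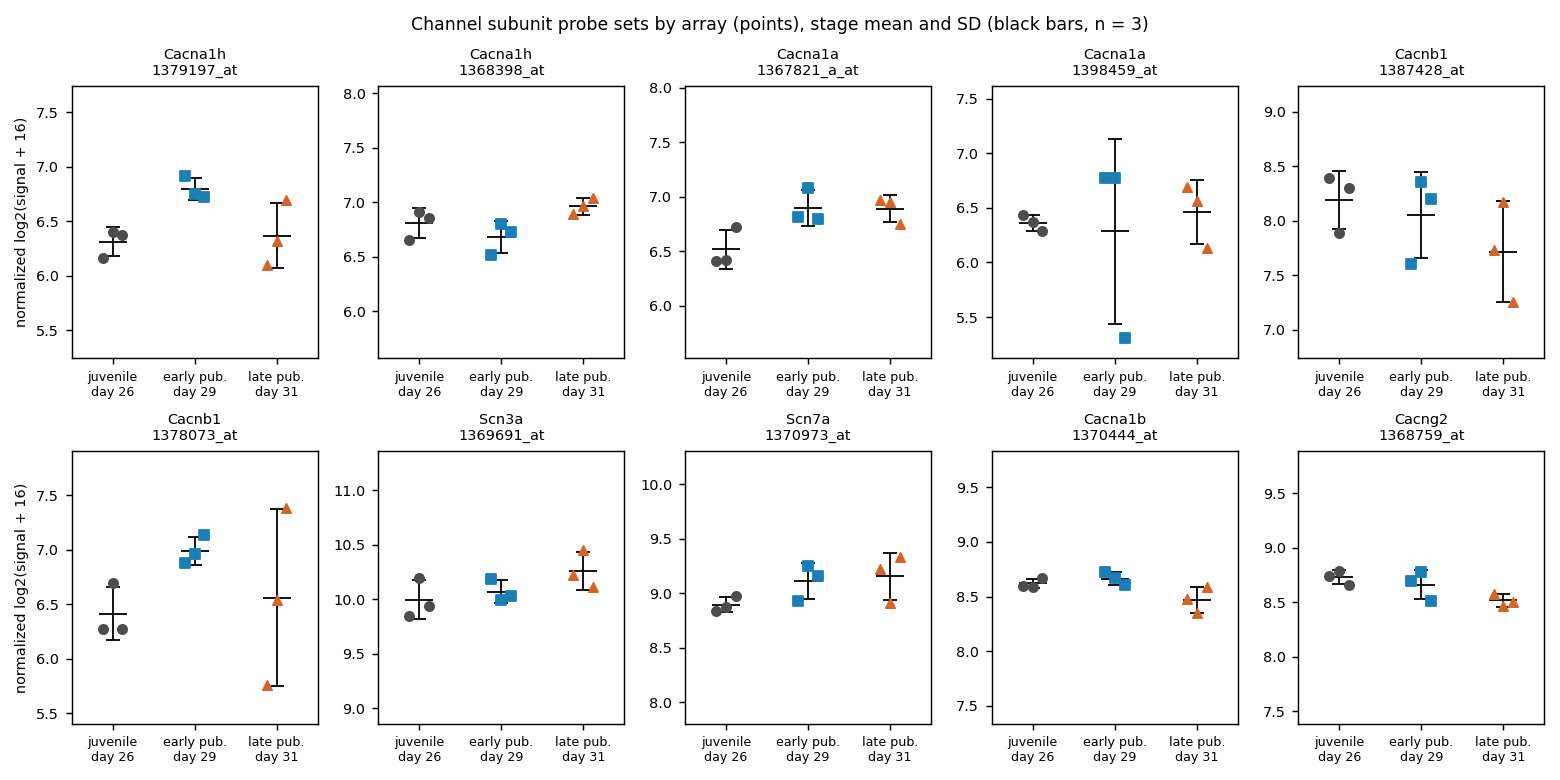
Normalized log2(signal + 16) (y axes, each spanning 2.5 log2 units) by stage for 10 channel probe sets, with 1 point per array and black bars for the stage mean and SD (n = 3). The Cacna1h and Cacnb1 probe sets of the same gene differ in pattern, and early pubertal replicate 10 stands at 5.31 on Cacna1a probe set 1398459_at.

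Auxiliary calcium channel subunits showed no shared direction. Cacna2d1, the alpha-2-delta subunit that binds gabapentin, read 10.33, 10.05 and 10.27 in juvenile, 10.16, 10.43 and 10.28 in early pubertal and 10.36, 10.28 and 10.30 in late pubertal animals. Cacna2d3, of the same family, read 9.24, 9.45 and 9.45 in juvenile, 9.40, 9.12 and 9.08 in early pubertal and 9.32, 9.13 and 9.24 in late pubertal animals. Stages overlapped for both genes. Differences from juvenile were 0.07 ± 0.09 in early and 0.10 ± 0.09 in late pubertal animals for Cacna2d1, and −0.18 ± 0.11 and −0.15 ± 0.11 for Cacna2d3. The late pubertal difference of Cacna2d1 was 0.0140 without juvenile replicate 2 and 0.15 without juvenile replicate 1. The early pubertal difference of Cacna2d3 was −0.28 without early pubertal replicate 7 and −0.12 without early pubertal replicate 10.

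The beta subunits, which bind the pore from inside the cell, included probe sets of Cacnb1 and Cacnb2 that lay on opposite sides of 0. Cacnb1 read 6.27, 6.69 and 6.28 in juvenile, 6.88, 6.96 and 7.13 in early pubertal and 5.76, 6.54 and 7.38 in late pubertal animals on probe set 1378073_at. Early pubertal arrays were above all juvenile ones, while the late pubertal arrays ran from the lowest to the highest value of all 9. Early pubertal minus juvenile was 0.58 ± 0.32, 1.49-fold, with an unadjusted limma p of 0.0989 and an adjusted p of 0.994. On probe set 1387428_at the gene read 8.39, 7.89 and 8.30 in juvenile, 7.60, 8.35 and 8.20 in early pubertal and 7.73, 8.17 and 7.25 in late pubertal animals. Late pubertal replicate 20, the highest array on the first probe set, was the lowest here. The late pubertal minus juvenile difference was −0.48 ± 0.24, and without late pubertal replicate 20 it was −0.24, while on the first probe set it was 0.15 ± 0.32.

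Cacnb2 had small differences on 2 of its 3 probe sets. Probe set 1370178_at read 8.83, 9.02 and 8.95 in juvenile, 9.14, 8.92 and 8.89 in early pubertal and 8.86, 9.05 and 8.76 in late pubertal animals. Probe set 1374717_at read 8.05, 8.08 and 8.15 in juvenile, 8.20, 7.97 and 8.08 in early pubertal and 8.14, 8.17 and 7.99 in late pubertal animals. Stages overlapped on both, with all 6 differences between −0.10 and 0.05. Its other probe set, 1388023_a_at, read 6.82, 6.57 and 6.52 in juvenile, 6.75, 7.62 and 6.63 in early pubertal and 6.85, 7.12 and 6.50 in late pubertal animals. Early pubertal replicate 8 stood alone there, and the early pubertal minus juvenile difference of 0.37 ± 0.26 came with overlapping stages. Cacnb3 gave differences of −0.03 ± 0.12 in early and −0.05 ± 0.12 in late pubertal animals against juvenile, and Cacnb4 gave 0.02 ± 0.17 and 0.06 ± 0.17.

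Of the gamma family, Cacng2, which encodes the TARP stargazin, read 8.74, 8.79 and 8.66 in juvenile, 8.69, 8.77 and 8.52 in early pubertal and 8.58, 8.47 and 8.51 in late pubertal animals on probe set 1368759_at. All late pubertal arrays were below all juvenile ones, and the early pubertal arrays overlapped both. Late pubertal animals averaged 8.52 ± 0.06 and juvenile animals 8.73 ± 0.06 (SD, n = 3 each), a difference of −0.21 ± 0.10 (SE) with an unadjusted limma p of 0.0596 and an adjusted p of 0.9998. The other Cacng2 probe set, 1375735_at, gave 0.08 ± 0.16. It read 7.69, 7.76 and 7.87 in juvenile, 7.64, 7.91 and 7.67 in early pubertal and 8.13, 7.49 and 7.93 in late pubertal animals, with late pubertal arrays on both sides of the juvenile ones. The TARP genes Cacng3, Cacng4 and Cacng8 differed from juvenile by 0.05, 0.08 and −0.26 in early and by −0.03, −0.05 and −0.22 in late pubertal animals, with SE of 0.20 to 0.25 and overlapping stages.

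Sodium channel alpha subunits were represented by 6 tested genes with 1 probe set each. Scn3a, whose channel is known best from the embryonic and newborn brain, read 9.85, 10.20 and 9.94 in juvenile, 10.19, 9.99 and 10.03 in early pubertal and 10.23, 10.45 and 10.11 in late pubertal animals. Late pubertal arrays were high but overlapped the juvenile arrays, since late pubertal replicate 20 lay below juvenile replicate 2. Late pubertal minus juvenile was 0.27 ± 0.11, 1.202-fold, with an unadjusted limma p of 0.0356 and an adjusted p of 0.9998, and late minus early pubertal was 0.19 ± 0.11. Without late pubertal replicate 14, the highest array, these values were 0.17 and 0.0988.

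Scn7a encodes Nax, an atypical sodium channel that does not open with voltage and is known from glia of the organs that sense blood sodium. It read 8.84, 8.87 and 8.97 in juvenile, 8.93, 9.25 and 9.16 in early pubertal and 9.22, 8.91 and 9.33 in late pubertal animals. Juvenile arrays were low, and 1 array of each pubertal stage fell within their range. Differences from juvenile were 0.22 ± 0.12 in early and 0.26 ± 0.12 in late pubertal animals, with unadjusted limma p of 0.101 and 0.0566 and adjusted p of 0.994 and 0.9998. Astrocyte markers lay on the same side as this gene: 8 of 10 tested markers were above 0 in each of these comparisons, with median differences of 0.12 and 0.08. Their summed normalized signal ran from 35969 to 36151 in juvenile, 36532 to 38218 in early pubertal and 36161 to 39160 in late pubertal animals. Their part in the Scn7a values was not tested. In tissue of mixed cells, fewer cells of a type and less RNA per cell cannot be told apart.

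The main sodium channels of central axons and cell bodies had differences within their errors or close to them. Scn1a, best known from inhibitory neurons, read 9.24, 8.76 and 9.03 in juvenile, 9.11, 9.55 and 8.97 in early pubertal and 8.77, 9.21 and 9.29 in late pubertal animals. Scn2a, best known from excitatory neurons, read 9.78, 9.11 and 9.67 in juvenile, 9.21, 9.64 and 9.50 in early pubertal and 9.41, 9.51 and 9.52 in late pubertal animals. Arrays of all stages overlapped for both, and juvenile replicate 2 was the lowest array on each. Differences from juvenile were 0.20 ± 0.18 in early and 0.08 ± 0.18 in late pubertal animals for Scn1a, and −0.07 ± 0.16 and −0.04 ± 0.16 for Scn2a. Scn9a and Scn10a, channels best known from sensory neurons, lay between −0.17 and 0.17 in all 3 comparisons.

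The 4 tested probe sets of sodium channel beta subunits had the smallest median SD within stages of the subunit classes. Scn3b gave 0.13 ± 0.10 and 0.02 ± 0.08 on its probe sets in early pubertal against juvenile animals, and 0.06 ± 0.10 and 0.02 ± 0.08 in late pubertal against juvenile animals. Scn2b read 10.62, 10.72 and 10.69 in juvenile, 10.67, 10.66 and 10.39 in early pubertal and 10.60, 10.75 and 10.61 in late pubertal animals on its tested probe set. Only early pubertal replicate 10 stood apart, at 10.39, and without it the early pubertal minus juvenile difference of −0.10 ± 0.08 became −0.00977. Scn4b differed from juvenile by 0.07 ± 0.11 in early and 0.04 ± 0.11 in late pubertal animals. The median SD within stages was 0.108 over the 4 tested probe sets of this class, beside 0.237 over the 6 of the sodium alpha subunits. In mean signal these 4 ranked from the 67.9th percentile for Scn4b to the 96.8th for Scn3b. The other Scn2b probe set, 1369311_at, lay below the filter and had an SD of 1.005, the highest of the untested channel probe sets.

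**Figure D3:**
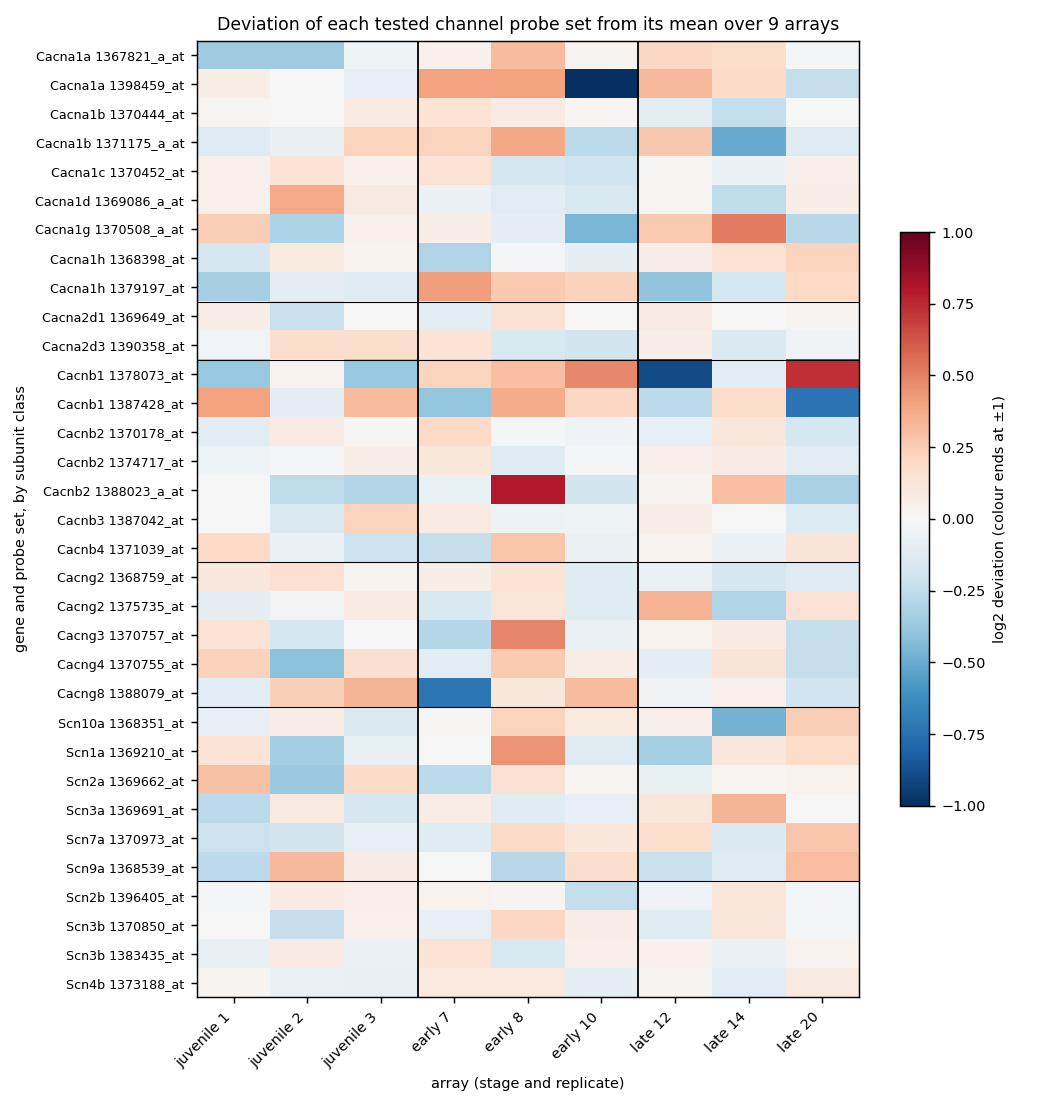
Log2 deviation of each tested channel probe set (rows, by subunit class) from its own mean over the 9 arrays (columns, by stage), with red above and blue below the mean. Single arrays stand out, as for Cacna1a at early pubertal replicate 10, Cacnb2 at early pubertal replicate 8 and Cacnb1 at late pubertal replicates 12 and 20.

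Root mean square deviations from the probe set means ran from 0.157 in juvenile replicate 3 to 0.269 in early pubertal replicate 8. Early pubertal replicate 8 was the highest of 9 arrays for 10 of 33 channel probe sets, and early pubertal replicate 7 for 7. The median deviation of replicate 8 from the probe set means was 0.14. The other 8 arrays had median deviations between −0.0445 and 0.0383. Late pubertal replicate 14 was the lowest array for 7 of 33 and juvenile replicate 2 for 6. These counts were not made over all tested probe sets. Of 11 genes with over 1 probe set, 7 had over 1 tested, with 15 tested probe sets in all. Cacna1a, Cacna1h, Cacnb1, Cacnb2 and Cacng2 had tested probe sets on opposite sides of 0 and over 0.2 log2 units apart in at least 1 comparison.

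The other 19 channel probe sets lay below the filter and were not tested. They left 11 genes without a tested probe set: the calcium channel pores Cacna1e, Cacna1f, Cacna1i and Cacna1s, the gamma members Cacng1, Cacng5, Cacng6 and Cacng7, and the sodium channel pores Scn4a, Scn8a and Scn11a. Cacna1s, Cacng1 and Scn4a are known from skeletal muscle and Cacna1f from the retina. Scn8a, by contrast, is a major sodium channel of the brain and was dim on its only probe set. The untested probe sets had a median SD within stages of 0.425. Their differences ran from −0.43 for Scn8a to 0.83 for Scn11a in early pubertal against juvenile animals. In late pubertal against juvenile animals they ran from −0.29 for Scn8a to 0.63 for a Cacna1a probe set.

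Gene order and promoter sequence were read for the members beside their levels. Several members are neighbours in the RefSeq gene order of the rat assembly GRCr8. Scn3a lies next to Scn2a, and Scn1a, Scn9a and Scn7a follow each other, 4 protein-coding genes away. Cacng1, Cacng4 and Cacng5 form another run, as do Cacng6, Cacng8 and Cacng7. Some neighbours differed: Cacng4 and Cacng8 were tested and the other 4 of these gamma genes lay below the filter, and Scn3a and Scn2a had late pubertal minus juvenile differences of 0.27 and −0.04.

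RefSeq promoters of GRCr8, 250 bases before to 50 after the start of a gene, were matched for 26 of the 36 genes. The dinucleotide CG, which reads the same on both strands, occurred 10.5 times in the median member promoter and 7 times in the median of all 27457 promoters. A ratio of observed to expected CG above 0.6 was found in 12 of 26 member promoters (46.2%) and in 36.8% of all promoters. Of the sodium alpha promoters 1 of 8 lay above that ratio, with a median of 8 CG, and of those of alpha-2-delta and beta calcium subunits 4 of 4. Calcium pore promoters lay above it in 3 of 7, with a median of 10 CG. Counts varied within both pore classes, from 4 for Cacna1c to 66 for Cacna1d and from 2 for Scn7a to 60 for Scn8a. The promoters of the sodium and calcium pore genes with the smallest unadjusted limma p among those matched are shown, 5′ to 3′ along each gene, with every CG in capitals. They were picked by p and do not stand for their classes. Scn3a (chr3:70666149-70666448, minus strand) has 7 CG, Scn7a (chr3:71846235-71846534, minus strand) has 2, Cacna1a (chr19:40650419-40650718, minus strand) has 41 and Cacna1b (chr3:27944236-27944535, minus strand) has 34. As many CG as in the Cacna1a sequence occur in 3.005% of all promoters, and as many as in that of Scn3a in 53.5%. Gene starts were taken as annotated. For Cacna1a the 50 bases from the annotated start open with an atg start codon. Its sequence may thus be transcribed leader and coding sequence rather than the promoter, and so may its CG count.
Scn3a promoter: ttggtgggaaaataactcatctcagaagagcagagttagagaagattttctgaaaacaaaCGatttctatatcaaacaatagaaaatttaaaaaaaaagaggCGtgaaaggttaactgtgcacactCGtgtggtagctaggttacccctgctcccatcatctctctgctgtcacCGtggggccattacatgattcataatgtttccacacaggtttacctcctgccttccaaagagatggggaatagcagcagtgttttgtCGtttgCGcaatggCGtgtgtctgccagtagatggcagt
Scn7a promoter: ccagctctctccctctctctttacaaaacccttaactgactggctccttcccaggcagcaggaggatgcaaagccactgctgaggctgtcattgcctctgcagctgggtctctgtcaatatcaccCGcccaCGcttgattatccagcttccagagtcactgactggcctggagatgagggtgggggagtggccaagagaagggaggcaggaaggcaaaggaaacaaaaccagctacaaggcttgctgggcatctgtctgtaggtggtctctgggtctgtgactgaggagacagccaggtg
Cacna1a promoter: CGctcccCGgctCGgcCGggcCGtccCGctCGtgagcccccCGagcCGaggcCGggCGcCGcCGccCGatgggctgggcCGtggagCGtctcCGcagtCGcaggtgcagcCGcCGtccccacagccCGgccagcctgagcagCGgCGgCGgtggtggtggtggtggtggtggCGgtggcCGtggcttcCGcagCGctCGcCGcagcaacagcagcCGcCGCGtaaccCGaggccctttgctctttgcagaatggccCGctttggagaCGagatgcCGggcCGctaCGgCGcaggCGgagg
Cacna1b promoter: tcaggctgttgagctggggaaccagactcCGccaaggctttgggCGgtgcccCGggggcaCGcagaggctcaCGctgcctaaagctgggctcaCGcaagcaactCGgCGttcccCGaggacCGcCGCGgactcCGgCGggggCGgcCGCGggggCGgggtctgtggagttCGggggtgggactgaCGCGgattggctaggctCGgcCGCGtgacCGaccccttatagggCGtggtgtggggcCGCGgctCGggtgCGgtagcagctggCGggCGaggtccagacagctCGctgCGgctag
In late pubertal against juvenile animals the probe sets with the smallest p of these genes stood at 0.27 for Scn3a, 0.26 for Scn7a, 0.37 for Cacna1a and −0.15 for Cacna1b. These are descriptions of 4 genes, and no relation between promoter and difference was tested.

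Other genes of the same pathways were read from lists, each gene by its brightest probe set. None of their members passed the test in either direction in any comparison, as for 0% of all tested probe sets. Of 10 tested partners that anchor or modulate sodium channels, 5 were above and 5 below 0 in early pubertal against juvenile animals, and 4 above and 6 below in late pubertal against juvenile animals, with medians of 0.00430 and −0.07. Ank3 encodes ankyrin-G, which gathers sodium channels at the axon initial segment. It read 9.86, 9.96 and 9.77 in juvenile, 9.27, 9.79 and 9.44 in early pubertal and 9.46, 9.60 and 9.21 in late pubertal animals. All late pubertal arrays lay below all juvenile ones, with a difference of −0.44 ± 0.14 (limma adjusted p 0.9998), and the early pubertal difference was −0.36 ± 0.14 with 1 array overlapping. Nfasc, an adhesion molecule of the same segment, differed by −0.19 ± 0.12 in early and −0.28 ± 0.12 in late pubertal animals. In the sodium leak complex, which sets the resting potential, Nalcn differed by −0.07 ± 0.06 and −0.09 ± 0.06 and its partner Nalf1 by −0.10 ± 0.09 and 0.03 ± 0.09 in early and late pubertal against juvenile animals.

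Regulators and release partners of calcium channels were below 0 for 12 of 20 tested members in early pubertal and for 16 of 20 in late pubertal animals against juvenile, with medians of −0.05 and −0.04. Over all tested probe sets the counts were 9386 and 9396 of 18625. Syt1, the calcium sensor of vesicle release, differed by −0.23 ± 0.15 in early and −0.42 ± 0.15 in late pubertal animals. Rims2, an active zone protein that binds calcium channels, differed by −0.18 ± 0.15 and −0.35 ± 0.15. Neuronal markers, which share Syt1 and Snap25 with this list, lay on the same side, with 10 of 15 below 0 in early and 13 of 15 in late pubertal animals and medians of −0.07 and −0.03. Their summed signal ran from 31301 to 34762 in juvenile, 31226 to 35045 in early pubertal and 31472 to 32336 in late pubertal animals. Their part in the values of the regulators was not tested.

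Calcium stores and extrusion had 19 tested members, 8 above and 11 below 0 both in early and in late pubertal against juvenile animals. Atp2b3, a plasma membrane calcium pump, had the smallest F p of all the genes on these pathway lists. It read 10.31, 10.42 and 10.32 in juvenile, 10.13, 10.15 and 10.05 in early pubertal and 10.41, 10.29 and 10.36 in late pubertal animals. Early pubertal arrays lay below all others, by −0.24 ± 0.07 against juvenile and with late minus early pubertal at 0.24 ± 0.07, at limma adjusted p of 0.994 and 0.914. Orai2, a store-operated channel, differed from juvenile by −0.27 ± 0.12 in early and −0.24 ± 0.12 in late pubertal animals. Of the pacemaker channels, Hcn2 stood at −0.29 ± 0.14 in early pubertal against juvenile and at 0.31 ± 0.14 in late against early pubertal animals, and Hcn3 at 0.20 ± 0.28 and 0.09 ± 0.28.

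**Figure D4:**
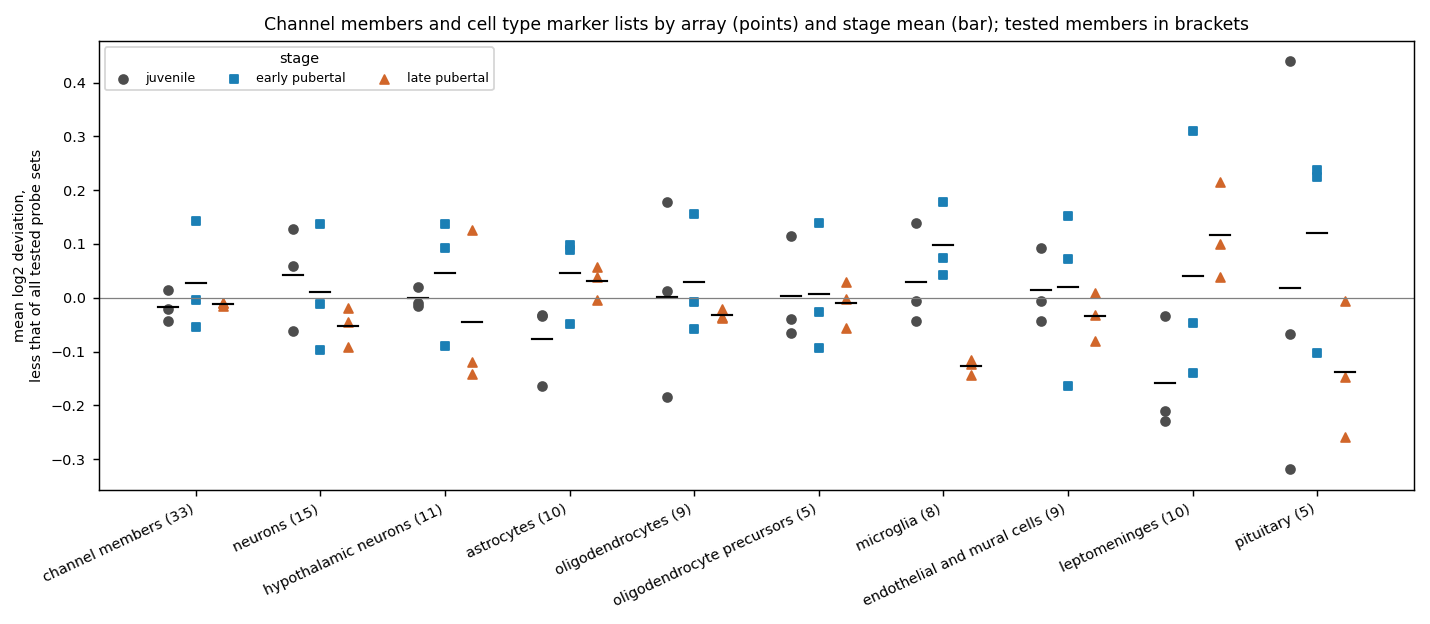
Mean log2 deviation per array (y axis), less that of all tested probe sets, for the 33 channel probe sets and for cell type marker lists (x axis, tested members in brackets), with 1 point per array and a bar for each stage mean. The channel members stay within −0.0539 to 0.14, with early pubertal replicate 8 highest, while leptomeningeal markers reach 0.31 in early pubertal replicate 10.

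Marker lists of other cells and tissues were read beside the channels. Leptomeningeal markers were above 0 for 10 of 10 members in early and in late pubertal against juvenile animals, and microglial markers were below 0 for 8 of 8 in late against early pubertal animals. Early pubertal replicate 8, the highest array of the channel genes, was also the highest array of the neuronal list at a score of 0.14, of the microglial list at 0.18 and of the oligodendrocyte precursor list at 0.14. It scored −0.0906 on the hypothalamic neuron list, and juvenile replicate 1 scored 0.13 on the neuronal list and −0.0211 on the channel genes. Of 8 pituitary markers 5 passed the filter, namely Cga, Lhb, Tshb, Fshb and Ghrhr, and Gh1, Prl and Pou1f1 did not. Of 7 skeletal muscle markers Myh1 and Acta1 passed, and Ckm, Mb, Myh2, Tnnt3 and Tnni2 did not. The summed signal of the tested pituitary markers ran from 1358 to 3094 in juvenile, 2052 to 2681 in early pubertal and 1748 to 2246 in late pubertal animals. That of the muscle markers ran from 3013 to 3413 in juvenile, 2318 to 3233 in early pubertal and 2932 to 3153 in late pubertal animals. Each sum came mostly from 1 bright probe set. In juvenile animals Myh1 averaged a log2 level of 11.48 and Acta1 8.37, while Cga averaged 10.62 and Tshb, the next pituitary marker, 7.39. The muscle sum is therefore close to a reading of Myh1 alone. The part of these lists in the channel values was not tested.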

How the data were processed

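The authors deposited 1 linear intensity per probe set and array, computed with MAS5 per the submitters' processing notes. Its version and target level were not given in these sources. Per the labels' protocols, total RNA was converted with an oligo-dT primer and labelled with biotin by in vitro transcription, so probe sets far from the 3′ end of long channel transcripts can read low. Of 31099 probe sets, 57 controls were left out. Trimmed means differed by up to 1.41 times between arrays, so log2(signal + 16) was quantile-normalized over the other 31042. Probe sets with a mean above the 40th percentile, 18625 in all, entered a limma fit (version 3.58.1, R 4.3.3) of the stage means, whose prior followed the intensity (prior df 5.80, residual df 6). Tests were two-sided, with Benjamini-Hochberg adjustment over all tested probe sets within each comparison. The script was tested on simulated data.

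Groups, ages and replicate numbers came from titles and source names, and no batch is labelled. The number of arrays limits the precision. Each ± after a difference is its SE from limma, and intervals are 95% and unadjusted. Every member gene is named. Values of all arrays are given for up to 4 members per comparison and direction with the smallest unadjusted p. They are also given for up to 4 by the F test, and for genes whose tested probe sets disagree in sign. Those of Scn1a and Scn2a were given outside this rule. Pathway genes were named by F p, up to 2 a list. Members and lists were chosen with earlier results of these data known. Alternatives changed the constant, normalization, filter, prior, array weights, samples, probe sets per gene and each array in turn.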

Additional observations from a re-analysis of the deposited data

How the results depend on the processing

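Under the 20 alternatives, limma with Benjamini-Hochberg adjustment called 0 channel probe sets in all 3 pairwise comparisons, and 0 by the F test under the 19 that allow it. The smallest limma adjusted p of any channel probe set was 0.231, for Scn3a in late against early pubertal animals at the deposited level. With normalization between arrays it was 0.33, for Scn3a in late pubertal against juvenile animals with array weights. At the deposited level, without normalization between arrays, the median of all tested probe sets was −0.24 in early pubertal against juvenile animals. It was −0.02 in late pubertal against juvenile and 0.22 in late against early pubertal animals. Member differences were read relative to that median, but their p came from the fit without this centring. The 0.231 thus holds the shift of 0.22 as well. Over all tested probe sets 10 (1 higher and 9 lower), 1 and 21 (all higher) were called there in these comparisons and 16 by the F test, against 0 after normalization. Array weights called 1 in late pubertal against juvenile animals, and leaving out juvenile replicate 2 called 1 there and 1 by the F test, none of them a channel probe set. The median difference of the members stayed between −0.0179 and 0.08 in early pubertal against juvenile, −0.03 and 0.04 in late pubertal against juvenile and −0.05 and 0.02 in late against early pubertal animals. Of 468 values of the 24 leading differences, 467 kept their sign, and 16 of the 24 differences moved by over 1.5 times under at least 1 alternative. Scn2b in late against early pubertal animals was 0.08 with all arrays and −0.00902 without early pubertal replicate 10, with a highest value of 0.13 without early pubertal replicate 7. No filter on low signal added the 19 dim probe sets and no call. Signal over background is limited for those, and no detection calls were used. The stages were sampled from different rats, each at 1 age, so there were no pairs to analyse.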
